A study of Mus musculus with 8 samples.

Results

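The 9 genes of the interferon-gamma production axis were followed in mouse meningeal CD4+ T cells and in non-immune hippocampal cells. They were found by their symbols in the gene tables, which hold 9 rows for them among 55487 genes in each of 4 tables. Ifng encodes the cytokine, Il12rb2, Il18r1 and Il18rap encode receptor chains for the inducing cytokines IL-12 and IL-18, and Stat4 and Tbx21 encode transcription factors that drive the Ifng gene. Cxcr3 encodes a chemokine receptor of T helper 1 (Th1) cells, and Ifngr1 and Ifngr2 encode the ligand-binding and the signalling chain of the receptor for the cytokine. Meningeal T cells, sorted as CD45+ CD3+ CD4+ cells, came from untreated Foxp3-GFP mice (replicate 1) and B6.WT mice (replicate 2), and were profiled as single cells for RNA, for T-cell receptor (TCR) chains and for hashtag antibodies. The number of mice behind each of those replicates is not given in the sources used here. Hippocampal cells, sorted as CD45- Thy1- cells, came from 1 library of Foxp3-DTR- littermates and 1 of Foxp3-DTR+ mice. Both genotypes were given diphtheria toxin, which kills cells carrying its receptor and here targets Foxp3-expressing regulatory T cells, and each library pooled 2 mice.

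Interferon gamma is made mainly by Th1 cells, cytotoxic T cells, natural killer cells and innate-like T cells such as invariant natural killer T (iNKT) cells. IL-12 acts through Il12rb2 and Stat4, and IL-18 acts through the pair Il18r1 and Il18rap; both reinforce transcription of Ifng together with Tbx21 (T-bet). A responding cell needs both Ifngr1 and Ifngr2, which signal through Jak1 and Jak2 to induce genes such as Irf1, Gbp2, Igtp and Socs1. In the brain and its borders the cytokine is known to act on glia, endothelium and neurons as well as on immune cells.

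The T cells were placed in 5 states without use of any of the 9 genes. Cells with the invariant TRAV11-TRAJ18 alpha chain were called iNKT cells, and the remaining cells with at least 1 Foxp3 UMI (unique molecular identifier, 1 counted transcript) were called Foxp3-positive. The others with exactly 1 TRB chain were called expanded where 2 or more cells shared that chain. Cells with no such partner were called naive-type where they had UMIs of naive T-cell markers, Ccr7 among them, and single-clone otherwise. The 3 most frequent invariant junctions are shown because the invariant chain defines the iNKT cells. Ifng was detected most often in iNKT and expanded cells, as described below. These 3 junctions are 45 bases long and differ at 1 position, given as a capital.
chain 1: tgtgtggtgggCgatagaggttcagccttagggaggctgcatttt
chain 2: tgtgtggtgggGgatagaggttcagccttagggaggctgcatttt
chain 3: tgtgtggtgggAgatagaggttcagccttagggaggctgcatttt
Chain 1 was carried by 39 of 112 iNKT cells in replicate 1 and by 145 of 389 in replicate 2, chain 2 by 30 and 113, and chain 3 by 21 and 66. The order of the 3 junctions was thus the same in both replicates. All iNKT cells in both replicates had a junction of 45 bases.

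The regulatory sequence before the start of Ifng and of Il12rb2 is shown because these 2 of the 9 genes had the largest fold differences between iNKT and single-clone cells with all cells kept. Both are RefSeq promoters of the build GRCm38.p6, given as the 250 bases before the gene's start. The Ifng stretch is chr10:118440796-118441045 on the plus strand and the Il12rb2 stretch is chr6:67376189-67376438 on the minus strand. Capitals mark the letters TTCNNNGAA, the core of a STAT site (GAS), and TCACAC, the core of a T-box site, on either strand.
Ifng: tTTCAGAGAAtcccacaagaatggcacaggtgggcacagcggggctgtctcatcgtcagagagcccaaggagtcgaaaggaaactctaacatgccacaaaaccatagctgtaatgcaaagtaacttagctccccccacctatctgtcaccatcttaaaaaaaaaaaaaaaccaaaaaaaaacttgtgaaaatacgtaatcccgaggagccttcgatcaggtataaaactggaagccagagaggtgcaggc
Il12rb2: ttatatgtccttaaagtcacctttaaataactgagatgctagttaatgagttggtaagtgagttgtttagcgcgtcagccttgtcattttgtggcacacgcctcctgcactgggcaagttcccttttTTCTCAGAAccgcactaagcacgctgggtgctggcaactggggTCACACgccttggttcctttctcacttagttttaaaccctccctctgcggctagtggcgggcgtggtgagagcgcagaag
TTCNNNGAA was found in 7.02% of all 32851 promoter stretches and TCACAC in 12.3%. The stretches listed for the 9 genes reach past the gene's start, for Ifng to chr10:118441095, and are longer than those printed. Among the 12 stretches listed for the 9 genes, TTCNNNGAA occurred in 3 (Ifng, Il12rb2 and the third start of Il18r1) and TCACAC in 2 (Il12rb2 and Cxcr3). The longer T-box letters TCACACC (3.33% of all stretches) and the AP-1 letters TGANTCA (6.75%) occurred in 0 of the 12. Such matches are letters in a sequence and not evidence of binding.

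The cells that carried the hashtag of their sample and passed the filters numbered 1506 in replicate 1 and 3170 in replicate 2. Of these, 1332 and 2290 could be placed in the 5 states, and 174 and 880 could not. Replicate 1 was sequenced more deeply per cell, with a median of 2916 UMIs per single-clone cell against 1691 in replicate 2. iNKT cells numbered 112 and 389 in the 2 replicates, Foxp3-positive cells 99 and 394, expanded cells 262 and 228, single-clone cells 774 and 1197, and naive-type cells 85 and 82. Zbtb16, the transcription factor that programs iNKT cells, had a UMI in 18.8% and 11.8% of iNKT cells and in 0.904% and 1.92% of single-clone cells. Cd4 had a UMI in 20.5% and 15.9% of iNKT cells and in 50.6% and 33.6% of single-clone cells. Levels below are UMI counts of a gene divided by all UMIs of the state on the usual CPM scale, and intervals in brackets are exact 95% intervals that cover counting error only. In droplet data free RNA can place a UMI in a cell that does not express a gene, so naive-type cells, which should make little Ifng, are given as the background.

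Ifng was detected most often in iNKT and expanded cells and least often in naive-type and Foxp3-positive cells. Ifng lies at chr10:118441046-118445892 (GRCm38). Of the 112 iNKT cells in replicate 1, 26 had an Ifng UMI, or 23.2% (15.8 to 32.1), and 88 of the 389 in replicate 2 had one, or 22.6% (18.6 to 27.1). Expanded cells had shares of 21.8% (16.9 to 27.2) and 19.7% (14.8 to 25.5), and single-clone cells 14.5% (12.1 to 17.1) and 13% (11.2 to 15.1). Foxp3-positive cells had 5.05% (1.66 to 11.4) and 7.36% (4.98 to 10.4), and naive-type cells 2.35% and 3.66%. The order of the 5 states by this share was the same in both replicates. Neighbours in this order were not all distinct, since the intervals of iNKT and expanded cells overlapped in both replicates, as did those of expanded and single-clone cells and those of Foxp3-positive and naive-type cells. The median depth was 3466 and 1796 UMIs in naive-type cells and 3562.5 and 1910 in iNKT cells. After thinning each cell to 1000 UMIs, the Ifng share was 6.36% and 14.9% in iNKT cells, 10% and 14% in expanded cells, 5.8% and 8.42% in single-clone cells, 1.06% and 4.56% in Foxp3-positive cells, and 2.35% and 1.25% in naive-type cells. At equal depth the iNKT intervals were 2.60 to 12.7% and 11.5 to 19.0%, and those of expanded cells 6.66 to 14.4% and 9.51 to 19.6%. They overlapped in both replicates, so no order between iNKT and expanded cells is read from the thinned shares. The single-clone intervals were 4.25 to 7.71%, inside that of iNKT cells in replicate 1, and 6.85 to 10.2%, below it in replicate 2. The thinned shares of naive-type and Foxp3-positive cells rest on few UMIs, and no order between them is read from these values.

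**Figure D1:**
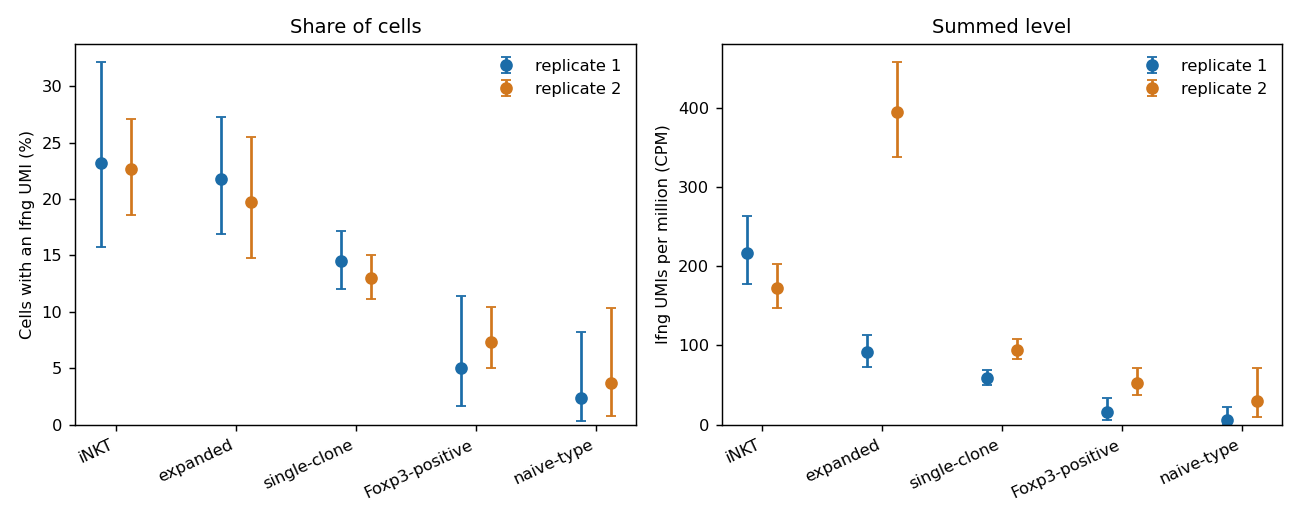
Ifng in 5 meningeal T-cell states. Left, percent of cells with at least 1 Ifng UMI with exact binomial 95% intervals; right, Ifng CPM with exact Poisson 95% intervals; blue is replicate 1 and orange replicate 2. The share falls from iNKT to naive-type cells in both replicates, while the CPM of iNKT and expanded cells changes places between them.

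The summed Ifng level rested on a few very high cells. In iNKT cells it was 217 CPM (177 to 264) in replicate 1 and 173 CPM (147 to 202) in replicate 2, and in expanded cells 91.4 CPM (72.6 to 114) and 394 CPM. Single-clone cells had 58.9 and 94.9 CPM, Foxp3-positive cells 15.7 and 52.5 CPM, and naive-type cells 6.05 and 30.5 CPM. The naive-type values came from 2 and 5 UMIs. Of the 102 Ifng UMIs of iNKT cells in replicate 1, 67 lay in 1 cell, and of the 173 of expanded cells in replicate 2, 100 lay in 1 cell. These were the highest counts in any cell of the 5 states, the next being 14 in a single-clone cell of replicate 1. Without the cell with most Ifng UMIs in each state and replicate, a setting added after seeing the data, the mean over both replicates was 121 CPM in iNKT cells instead of 195 CPM. A single UMI was found in 19 of 26 producing iNKT cells in replicate 1, 57 of 88 in replicate 2, 45 of 57 producing expanded cells in replicate 1 and 22 of 45 in replicate 2. The iNKT cells gave 23.6% and 20.7% of all Ifng UMIs in the 2 replicates from 9.14% and 15.2% of all UMIs, and expanded cells gave 18.8% and 23.1% from 17.3% and 7.45%. Without its top cell the expanded state of replicate 2 had 168 CPM, beside 166 CPM in iNKT cells without theirs. In replicate 1 iNKT cells had 75.3 CPM without 1 cell, below the 82.6 CPM of expanded cells and above the 53.5 CPM of single-clone cells without theirs.

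**Figure D2:**
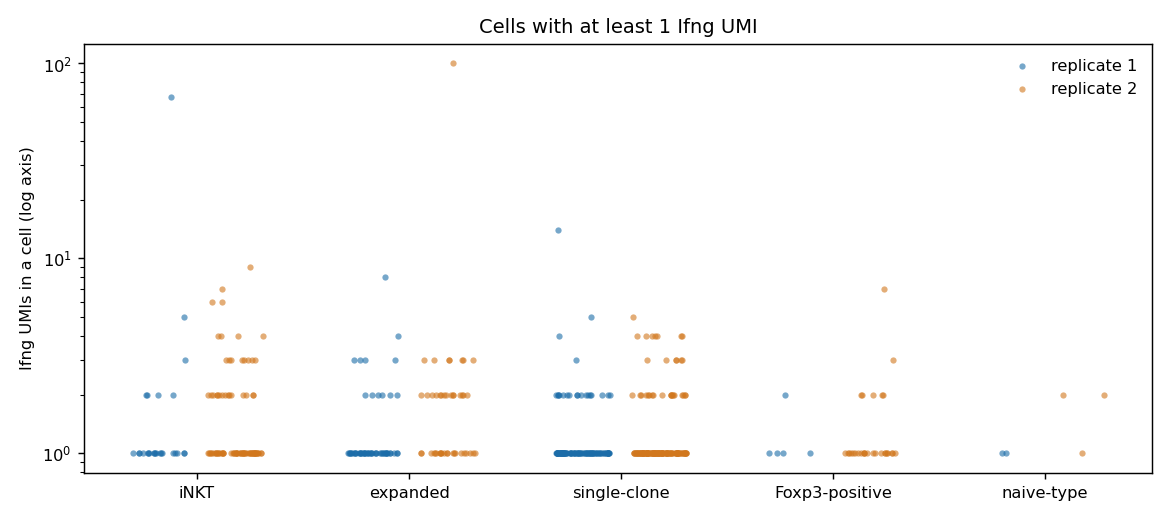
Ifng UMIs in each cell with at least 1, by state and replicate, on a log axis; each point is 1 cell, spread sideways for visibility. Most points lie at 1 to 4 UMIs, with 1 iNKT cell of replicate 1 at 67 and 1 expanded cell of replicate 2 at 100.

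The states were tested over 2 replicates as UMI sums with edgeR's quasi-likelihood test over 7810 genes. Without a replicate term, none of the 9 genes passed an adjusted p of 0.05 in any of the 5 comparisons between states, where the percentage of all genes called was 0.0128 for iNKT against single-clone cells and 0 for each of the other 4. At an unadjusted p under 0.05, 352 genes lay in that first comparison, 266 for Foxp3-positive, 78 for expanded and 475 for naive-type cells against single-clone cells, and 374 for iNKT against expanded cells. DESeq2 called 27, 12, 1, 20 and 21 genes in the same order. The sums of a replicate share 1 library and the same animals, and with the replicate as a block edgeR called 350, 265, 100, 242 and 194 genes, which is 4.48%, 3.39%, 1.28%, 3.1% and 2.48% of those tested. In iNKT against single-clone cells 3 of the 9 genes were then higher and 1 lower, where 2.41% of all genes were called higher and 2.07% lower. Foxp3-positive cells had 1 of 9 higher (all genes 2.23%) and 1 lower (1.17%), and expanded cells 1 higher (1.13%) and 0 lower (0.154%). Naive-type cells had 0 higher (1.88%) and 3 lower (1.22%), and iNKT against expanded cells 1 higher (0.909%) and 0 lower (1.57%). Every call among the 9 genes by edgeR in T cells below is thus one of the fit with the block.

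Ifng itself was higher in iNKT and in expanded cells than in single-clone cells under the block. The iNKT difference was a log2 fold change of 1.35 ± 0.64 (SE) without the block (edgeR adjusted p = 1) and 1.27 ± 0.29 with it (edgeR adjusted p = 0.00787). It was positive in each replicate, at 1.88 (1.51 to 2.26) and 0.87 (0.56 to 1.17) on the log2 scale. The expanded difference was 1.61 ± 0.64 without the block (edgeR adjusted p = 1) and 1.46 ± 0.28 with it (edgeR adjusted p = 0.00446), with 0.63 and 2.06 in the 2 replicates. Leaving out the top cell of each state kept both calls under the block with smaller differences, 0.70 for iNKT cells (edgeR adjusted p = 0.0134) and 0.75 for expanded cells (edgeR adjusted p = 0.0217). In Foxp3-positive cells the log2 fold change was -1.11 ± 0.70 without and -1.13 ± 0.41 with the block (edgeR adjusted p = 0.177), and in naive-type cells -2.18 ± 0.94 and -2.16 ± 0.77 (edgeR adjusted p = 0.165). Between iNKT and expanded cells Ifng did not pass in either fit, and the replicates went opposite ways, with 1.25 in replicate 1 and -1.19 in replicate 2. Dissociation and activation genes summed to 4365 and 2858 CPM in expanded, 3255 and 2174 CPM in iNKT and 2504 and 2759 CPM in single-clone cells. Natural killer or innate markers summed to 37.2 and 153 CPM, 87.3 and 115 CPM, and 32.4 and 39.8 CPM in the same order. Their part in the Ifng differences was not tested.

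**Figure D3:**
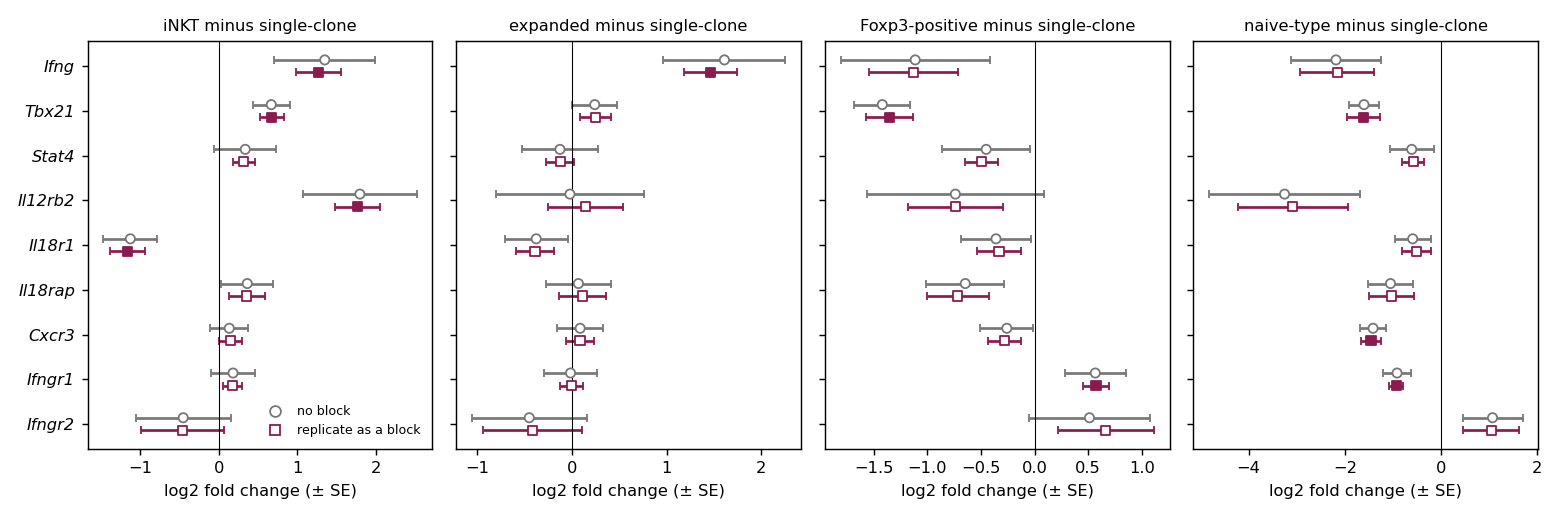
Log2 fold changes of the 9 genes against single-clone cells in 4 states, with standard errors; grey circles are fits without a block and purple squares fits with the replicate as a block, filled where the adjusted p is under 0.05. No circle is filled, and 10 squares are.

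Cells with Ifng were found in many expanded clonotypes. Of 86 expanded clonotypes in replicate 1, 38 had at least 1 cell with an Ifng UMI, and of 88 in replicate 2, 31 had one. Only 10 and 9 clonotypes had 2 or more such cells. The clonotype with the most Ifng UMIs gave 9.88% of the expanded state's UMIs in replicate 1 and 57.8% in replicate 2, and it had 2 cells in each. Without it the expanded state had 82.8 and 168 CPM. The expanded level thus stayed above the single-clone level of 58.9 and 94.9 CPM in both replicates.

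Of the transcription factors, Tbx21 passed in 3 states against single-clone cells under the block and Stat4 in 0. Tbx21, the Th1 master regulator at chr11:97098071-97115331, had 123 and 146 CPM in iNKT cells and 98.1 and 100 CPM in expanded cells. It had 83 and 85 CPM in single-clone cells, 21 and 41.3 CPM in Foxp3-positive cells and 21.2 and 30.5 CPM in naive-type cells. The 2 replicates of iNKT cells lay above both of expanded cells, those above both of single-clone cells, and the last 2 states overlapped each other. Against single-clone cells the log2 fold change of iNKT cells was 0.67 ± 0.24 without the block (edgeR adjusted p = 0.824) and 0.68 ± 0.15 with it (edgeR adjusted p = 0.00799). Foxp3-positive cells differed by -1.42 ± 0.26 (edgeR adjusted p = 0.322), and by -1.35 ± 0.22 with the block (edgeR adjusted p = 0.000288). Naive-type cells differed by -1.60 ± 0.31 (edgeR adjusted p = 0.376), and by -1.61 ± 0.34 with the block (edgeR adjusted p = 0.00467). Expanded cells did not differ detectably from single-clone cells, at 0.25 ± 0.16 with the block (edgeR adjusted p = 0.787).

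Stat4, which carries the IL-12 signal and lies at chr1:51987148-52107189, had 93.7 and 183 CPM in iNKT cells, 69.9 and 134 CPM in expanded cells and 80.7 and 139 CPM in single-clone cells. Foxp3-positive cells had 60.3 and 101 CPM and naive-type cells 45.4 and 91.4 CPM. Replicate 2 was higher than replicate 1 in every state. Within each replicate iNKT cells were highest and naive-type cells lowest, and both iNKT values lay above both naive-type values, while the other ranges overlapped. That pair was not tested. Stat4 passed in no comparison, with log2 fold changes between -0.57 in naive-type and 0.32 in iNKT cells against single-clone cells under the block. The smallest adjusted p was that of Foxp3-positive cells, with -0.50 ± 0.16 (edgeR adjusted p = 0.0956).

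Il12rb2, the chain that makes a T cell respond to IL-12, had the largest fold difference of the 9 genes between iNKT and single-clone cells. It lies at chr6:67291318-67376188 and had 29 UMIs (61.7 CPM) and 88 UMIs (98.2 CPM) in iNKT cells. Expanded cells had 20.3 and 25.1 CPM and single-clone cells 10.9 and 35.8 CPM. Foxp3-positive cells had 0 UMIs in replicate 1, which allows up to 7.86 CPM, and 23.8 CPM in replicate 2, while naive-type cells had 1 and 0 UMIs. Both iNKT values lay above every value of the other 4 states. A UMI was found in 23.2% and 20.6% of iNKT cells and in 3.36% and 6.01% of single-clone cells, and after thinning in 7.27% and 9.07% against 1.32% and 3.35%. The log2 fold change of iNKT against single-clone cells was 1.80 ± 0.72 (edgeR adjusted p = 1) and with the block 1.77 ± 0.29 (edgeR adjusted p = 0.000232). Against expanded cells it was 1.82 ± 0.79 (edgeR adjusted p = 1) and with the block 1.63 ± 0.37 (edgeR adjusted p = 0.0137). Its gene body overlaps that of Serbp1 on the other strand over 6419 bases at its 3' end, and how strand was counted is not given in the sources used here. Serbp1 differed by 0.26 ± 0.12 between the same states under the block (edgeR adjusted p = 0.326). The Ifng gene overlaps the transcript Gm49751 on its own strand, which had 23 UMIs in the 5 states.

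The 2 chains of the IL-18 receptor did not move together in iNKT cells. They are neighbours on chromosome 1, Il18r1 at chr1:40465552-40500854 and Il18rap at chr1:40515362-40551705, with 14507 bases and 0 protein-coding genes between them. Il18r1, the binding chain, had 31.9 and 41.3 CPM in iNKT cells, below the 70.2 and 90.4 CPM of single-clone cells. It had 48.5 and 77.5 CPM in expanded cells, 41.9 and 83.8 CPM in Foxp3-positive cells and 54.5 and 36.6 CPM in naive-type cells. Both iNKT values lay below both single-clone values, with a log2 fold change of -1.12 ± 0.34 (edgeR adjusted p = 0.589) and with the block -1.16 ± 0.23 (edgeR adjusted p = 0.0018). Il18rap, the accessory chain, had 31.9 and 55.8 CPM in iNKT cells and 26.9 and 42.1 CPM in single-clone cells. Its log2 fold change was 0.36 ± 0.23 with the block (edgeR adjusted p = 0.571). Elsewhere Il18rap had 31.6 and 41 CPM in expanded, 21 and 23.8 CPM in Foxp3-positive and 9.08 and 24.4 CPM in naive-type cells. The difference between the 2 chains was not tested.

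Cxcr3, the receptor that draws T cells to interferon-induced chemokines, was lowest in naive-type cells. It lies at chrX:101731535-101734269 and had 415 and 468 CPM in iNKT cells, 468 and 374 CPM in expanded cells, 408 and 389 CPM in single-clone cells, and 396 and 291 CPM in Foxp3-positive cells. Naive-type cells had 109 and 171 CPM, below every value of the other 4 states. Both iNKT values lay above both Foxp3-positive and both single-clone values, and the range of expanded cells overlapped those of iNKT, single-clone and Foxp3-positive cells. The log2 fold change of naive-type against single-clone cells was -1.41 ± 0.27 (edgeR adjusted p = 0.376) and with the block -1.45 ± 0.20 (edgeR adjusted p = 8.6e-05), and DESeq2 without the block also called it (DESeq2 adjusted p = 0.00774), where it called 0.256% of all genes. Foxp3-positive cells, in contrast to their Tbx21, differed by -0.28 ± 0.15 with the block (edgeR adjusted p = 0.477).

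**Figure D4:**
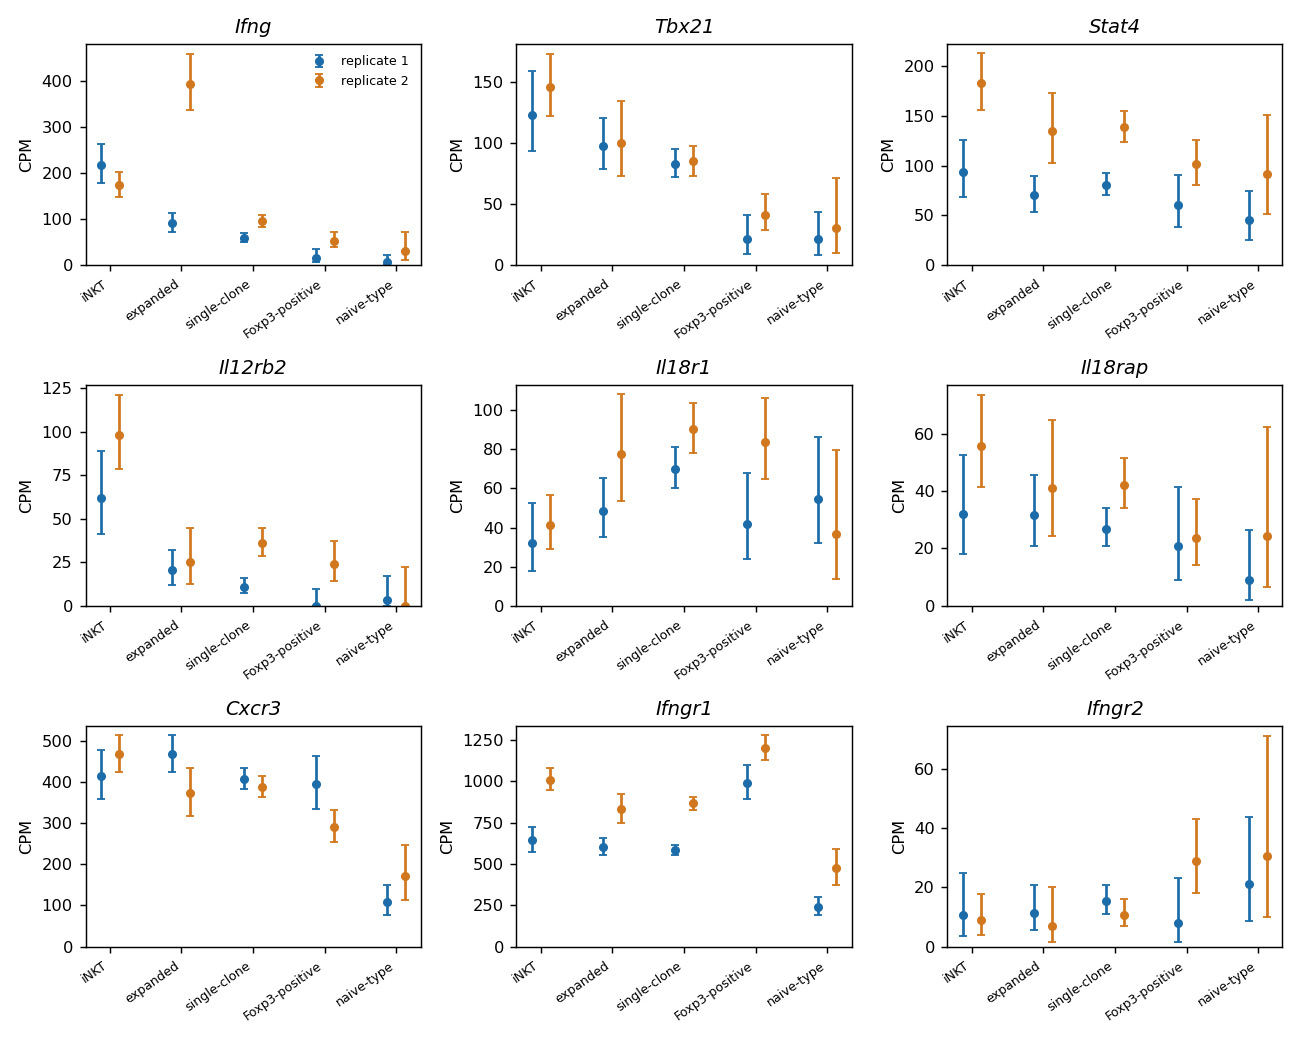
Levels (CPM) of the 9 genes in 5 T-cell states with exact Poisson 95% intervals; blue is replicate 1 and orange replicate 2. Il12rb2 stands out in iNKT cells, Tbx21 is low in Foxp3-positive and naive-type cells, and Ifngr1 is highest in Foxp3-positive cells.

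Of the receptor chains for the cytokine, Ifngr1 was highest in Foxp3-positive cells and Ifngr2 was scarce in all T cells. Ifngr1, at chr10:19591949-19610229, had 993 and 1205 CPM in Foxp3-positive cells and 645 and 1011 CPM in iNKT cells. It had 602 and 832 CPM in expanded, 583 and 867 CPM in single-clone and 242 and 475 CPM in naive-type cells. Within each replicate Foxp3-positive cells were highest and naive-type cells lowest, and replicate 2 was higher in every state. The log2 fold change against single-clone cells was 0.57 ± 0.28 in Foxp3-positive cells (edgeR adjusted p = 1) and with the block 0.57 ± 0.12 (edgeR adjusted p = 0.0047). In naive-type cells it was -0.91 ± 0.29 (edgeR adjusted p = 0.679) and with the block -0.93 ± 0.14 (edgeR adjusted p = 0.000256). In replicate 2, 4 myeloid markers summed to 238 CPM in Foxp3-positive cells against 46.1 CPM in single-clone cells, and in replicate 1 to 2.62 and 7.80 CPM with Cd68, Csf1r and C1qa at 0 in Foxp3-positive cells. The Ifngr1 difference was present in both replicates, and whether myeloid RNA had a part in it was not tested. Ifngr2, at chr16:91547072-91565623, had between 6.84 CPM (expanded cells, replicate 2) and 30.5 CPM (naive-type cells, replicate 2) from 3 to 39 UMIs a state. It passed in no comparison at these low counts. In Foxp3-positive against single-clone cells the replicates went opposite ways on the log2 scale. The ratio was -0.95 (-3.29 to 0.70) in replicate 1 and 1.42 (0.53 to 2.31) in replicate 2.

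Among expanded and single-clone cells, those with an Ifng UMI were compared with those without, leaving Ifng out. The 169 and 201 Ifng-positive cells had median depths of 2978 and 1818 UMIs, against 2877 and 1662 in the 867 and 1224 negative cells, and held more expanded cells, 33.7% and 22.4% against 23.6% and 15%. Tbx21 was higher in positive cells, with 130 and 133 CPM against 78.1 and 79.1 CPM. Ifngr1 was lower, with 493 and 781 CPM against 611 and 881 CPM. Without a block edgeR called 0 of 8987 genes (0%), with 236 at an unadjusted p under 0.05 and 3 called by DESeq2, and with the block 318 (3.54%; 1.84% higher and 1.7% lower). Of the 8 genes tested, 2 passed under the block: Tbx21 with a log2 fold change of 0.71 ± 0.16 (edgeR adjusted p = 0.000792) and Ifngr1 with -0.27 ± 0.07 (edgeR adjusted p = 0.0106). Il18r1 missed the threshold with -0.65 ± 0.21 (edgeR adjusted p = 0.0521), at 41.1 and 66.6 CPM in positive and 69.9 and 93 CPM in negative cells. Stat4, Il12rb2, Cxcr3, Il18rap and Ifngr2 did not pass, with adjusted p from 0.341 to 0.976. The part of depth and of the share of expanded cells in these differences was not tested. With only positive and negative sums of 2 replicates, the fit with the block leaves little spread of its own to estimate. Its p-values rest mostly on a spread pooled over genes.

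Other genes of the production pathway were read from a list of 25 genes, of which 21 were tested between states. With the block, 4 were higher (all genes 2.41%) and 0 lower (2.07%) in iNKT against single-clone cells, with a median log2 fold change of 0.04 beside -0.00 for all genes. They were the chemokine genes Ccl4 (3.99 ± 0.28, edgeR adjusted p = 1.05e-09) and Xcl1 (2.02 ± 0.25, edgeR adjusted p = 5.73e-06), Il2rb of the IL-2 and IL-15 receptors (0.88 ± 0.14, edgeR adjusted p = 0.000134) and Il12rb1, the partner chain of Il12rb2 (1.07 ± 0.24, edgeR adjusted p = 0.00805). Both chains of the IL-12 receptor were thus higher in iNKT cells. In expanded cells 4 of the 21 were higher (all genes 1.13%) and 0 lower (0.154%). The 4 were Ccl4, Ccl5, Xcl1 and the activation factor Bhlhe40 (0.69 ± 0.17, edgeR adjusted p = 0.0316). Foxp3-positive cells had 1 higher (all genes 2.23%), Ccl4, and 2 lower (1.17%), Xcl1 and the CD8-lineage factor Runx3 (-0.64 ± 0.18, edgeR adjusted p = 0.0455). Naive-type cells had 3 lower (all genes 1.22%), Ccl5, Il2rb and Xcl1, and 0 higher (1.88%), and the median of the list was -0.61 beside -0.03 for all genes. Between iNKT and expanded cells Il2rb alone passed (0.94 ± 0.14, edgeR adjusted p = 0.000154), where 0.909% of all genes were called higher. In Ifng-positive cells 4 of 22 were higher (all genes 1.84%), Xcl1 (2.17 ± 0.11, edgeR adjusted p = 2.77e-88), Ccl4, Ccl5 and Il2rb. That fit had only the positive and negative sums of 2 replicates. Its very small p-value thus rests mostly on a spread pooled over genes, and not on that between the replicates. Without the block none of the list passed in any of these comparisons.

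Of 15 genes that carry or answer the receptor's signal, 0 passed in any T-cell comparison without the block, where Socs3 in iNKT cells and Cish and Socs1 in naive-type cells had edgeR adjusted p of 1, 0.503 and 0.438. With the block 1 of 15 passed in iNKT cells (4.48% of all genes), 2 in naive-type cells (3.1%) and 2 in Ifng-positive cells (3.54%). The inhibitor Socs3 was lower in iNKT than in single-clone cells (-0.86 ± 0.25, edgeR adjusted p = 0.0433), and Cish (-1.27 ± 0.23, edgeR adjusted p = 0.00136) and Socs1 (-1.10 ± 0.22, edgeR adjusted p = 0.00312), both feedback inhibitors, were lower in naive-type cells. With the block 0 of the 15 passed in Foxp3-positive or expanded cells. In Ifng-positive cells Cish (0.47 ± 0.12, edgeR adjusted p = 0.00529) and the immunoproteasome gene Psmb8 (0.19 ± 0.06, edgeR adjusted p = 0.039) were higher. Jak1 and Jak2 passed in none of these comparisons.

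Across the 10 sums of state and replicate, the genes whose levels were most like Ifng were Tnf (Pearson r = 0.99 of log2(CPM + 1)), Xcl1 (0.96), Dusp6 (0.96), Dusp2 (0.95) and Tor1a (0.95), among 5811 genes with a mean of at least 20 CPM. Sums of a replicate share a library and the states share its depth, so these values are descriptions. The sums also include the single cells with 67 and 100 Ifng UMIs, and likeness without those cells was not computed. Tnf, the other effector cytokine of Th1 cells, had 96.1 and 86.2 CPM in iNKT cells and 57.7 and 121 CPM in expanded cells. In naive-type cells it had 24.3 and 49.0 CPM. Of the members, Tbx21 was closest with r = 0.90 (rank 17), followed by Il18rap (0.88), Stat4 (0.78), Il12rb2 (0.77) and Cxcr3 (0.71), while Il18r1 had 0.10 and Ifngr2 -0.53.

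In the hippocampus, 6863 cells of the Foxp3-DTR- library and 5691 of the Foxp3-DTR+ library remained, and classes were set by UMIs of marker genes. The 6 classes with at least 50 cells in each library were mature oligodendrocytes (3741 and 2641 cells), astrocytes (1031 and 1166), oligodendrocyte precursor cells (OPC, 696 and 884), endothelial cells (500 and 367), pericytes (173 and 152) and neuroblasts (185 and 146). The marker genes set the classes, so their presence is no check of them; Mog had a UMI in 99.5% of mature oligodendrocytes and Pdgfra in 96.4% of OPC in the Foxp3-DTR- library. Foxp3 had 0 UMIs in both libraries, which were sorted to lack immune cells, so depletion could not be checked there.

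Among these 6 classes the binding chain Ifngr1 was highest in cells of the vessel wall and in astrocytes. Pericytes had 108 CPM (76.3 to 148) in the Foxp3-DTR- and 92.5 CPM (58.6 to 139) in the Foxp3-DTR+ library, endothelial cells 72.5 and 51.3 CPM, and astrocytes 57.5 and 58.9 CPM. OPC had 41.1 and 41.5 CPM, mature oligodendrocytes 18.3 and 17.6 CPM, and neuroblasts 14.7 (8.82 to 22.9) and 12.3 CPM. Endothelial cells and astrocytes were not distinct, since the 2 astrocyte values lay between the 2 endothelial ones, and the intervals of mature oligodendrocytes and neuroblasts overlapped. Choroid plexus cells, with 172 and 36 cells, had 7.68 and 6.98 CPM from 6 and 1 UMIs, the lowest level of any class with more than 30 cells in each library. Fibroblasts, with 50 and 33 cells, had 110 and 65.6 CPM from 18 and 6 UMIs. The 2 and 7 cells of the microglia or macrophage class had 192 and 527 CPM from 2 and 11 UMIs, and the 28 and 9 differentiating oligodendrocytes 32.5 and 153 CPM from 8 UMIs each.

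The signalling chain Ifngr2 had another order. Neuroblasts had 40.1 CPM (30.0 to 52.6) and 26.8 CPM (17.1 to 39.8), OPC 33.6 and 27.9 CPM, and endothelial cells 26.5 and 28.6 CPM. Pericytes had 19.9 and 20.1 CPM from 7 and 5 UMIs, astrocytes 19.8 and 18.7 CPM, and mature oligodendrocytes 7.08 and 8.24 CPM. The values of the first 3 classes overlapped, pericytes and astrocytes lay within each other's intervals, and mature oligodendrocytes were lowest of the 6 classes in both libraries. Choroid plexus cells had 3.84 CPM from 3 UMIs and 0 UMIs. Neuroblasts were thus at the low end for Ifngr1 and at the high end for Ifngr2. After thinning to 2000 UMIs, 2.79% and 2.08% of neuroblasts had an Ifngr1 UMI and 10.1% and 4.86% an Ifngr2 UMI, against 12.8% and 10.7%, and 2.80% and 4.12%, of astrocytes. Both chains were found together in few thinned cells, from 0 to 7 per class and library. The highest count was 7 of 823 OPC of the Foxp3-DTR+ library, or 0.85%. Next were 4 of 239 endothelial cells of the Foxp3-DTR- library (1.67%) and 4 of 922 astrocytes of the Foxp3-DTR+ library (0.43%). The highest share was 6.90% of pericytes of the Foxp3-DTR+ library, from 2 of only 29 cells. The other library had 0 of 82 pericytes with both, and the Foxp3-DTR+ library 0 of 124 endothelial cells.

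**Figure D5:**
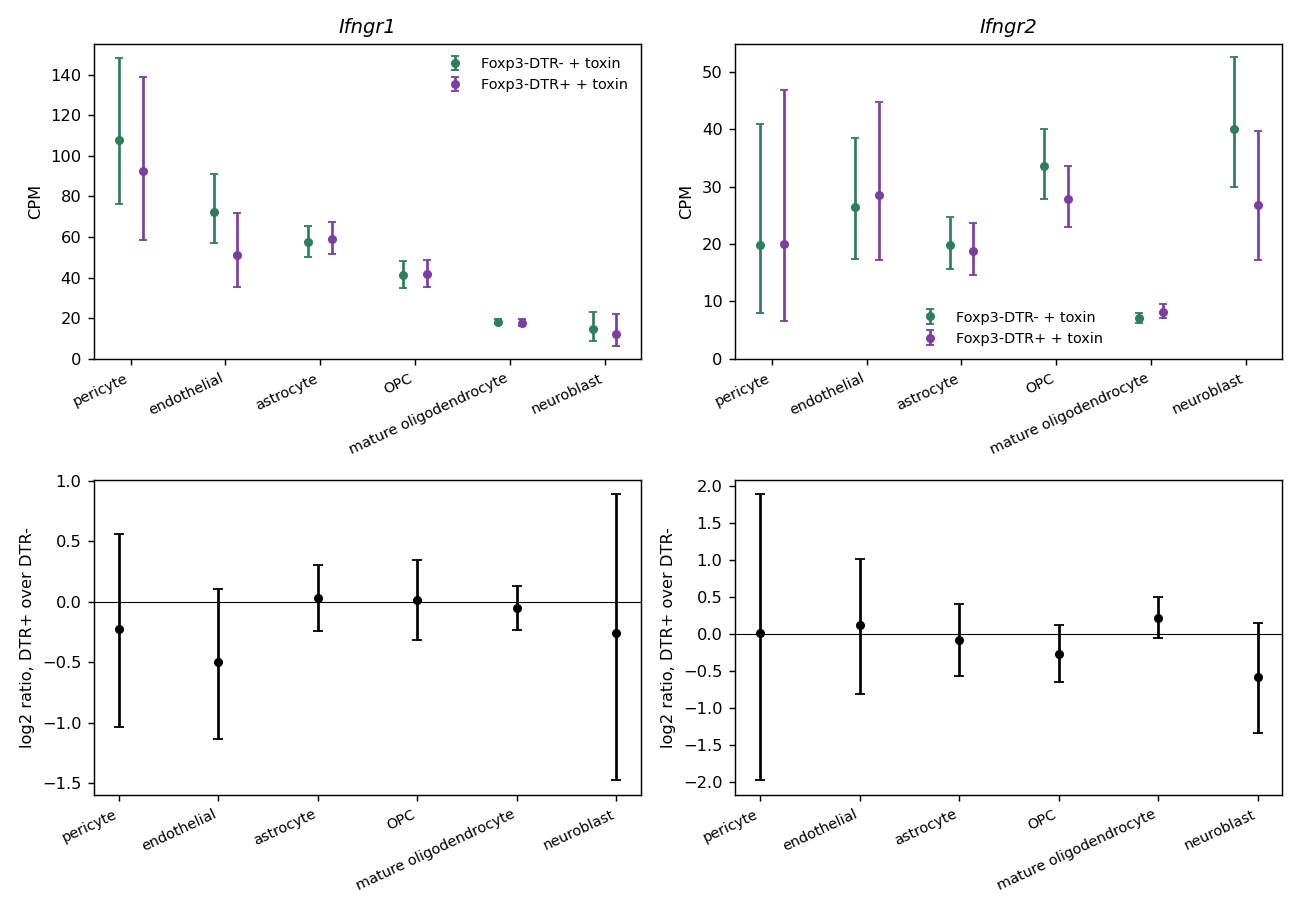
Top, Ifngr1 and Ifngr2 CPM in 6 hippocampal classes with exact Poisson 95% intervals, green for the Foxp3-DTR- and purple for the Foxp3-DTR+ library; bottom, the log2 ratio of the 2 libraries with its exact 95% counting interval. Ifngr1 is highest in pericytes, Ifngr2 is lowest in mature oligodendrocytes, and every interval of the ratio includes 0.

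Against mature oligodendrocytes, with the libraries as 2 replicates of a class, both chains were higher in astrocytes, OPC and endothelial cells, and Ifngr1 was higher in pericytes. Differences between such classes were common, and edgeR without a block called 66.9% of 14351 genes for astrocytes, 67.4% for OPC, 53.1% for endothelial cells and 43.1% for pericytes. Those called higher were 32%, 32.8%, 22.3% and 16%, so the calls of the receptor genes are not particular to them. The Ifngr1 log2 fold change was 1.48 ± 0.14 in astrocytes (edgeR adjusted p = 6.35e-10), 0.35 ± 0.14 in OPC (edgeR adjusted p = 0.0331), 1.45 ± 0.18 in endothelial cells (edgeR adjusted p = 1.79e-07) and 1.86 ± 0.23 in pericytes (edgeR adjusted p = 1.38e-07). The Ifngr2 log2 fold change was 1.12 ± 0.18 in astrocytes (edgeR adjusted p = 5.9e-06), 1.17 ± 0.17 in OPC (edgeR adjusted p = 9.91e-07) and 1.47 ± 0.27 in endothelial cells (edgeR adjusted p = 3.48e-05). In pericytes it was 0.75 ± 0.45 (edgeR adjusted p = 0.186). The scaling mattered here, because TMM and plain CPM place the middle of all genes differently. For OPC the plain CPM ratio of Ifngr1 was 1.17 on the log2 scale, where the median of all genes was 0.69, against a TMM median of -0.05. With DESeq2 the all-gene medians were 0.19 for astrocytes, 0.20 for OPC, 0.05 for endothelial cells and 0.07 for pericytes from -0.06, -0.05, -0.32 and -0.52, and all 8 receptor differences passed where DESeq2 called 63.9%, 63.8%, 49.8% and 39.8% of genes, with Ifngr1 in OPC at 0.61 (DESeq2 adjusted p = 5.75e-05) and Ifngr2 in pericytes at 1.08 (DESeq2 adjusted p = 0.0434). The split of higher against lower genes moved with it, from 4599 and 4999 to 5345 and 3824 in astrocytes, from 4701 and 4968 to 5516 and 3638 in OPC, from 3198 and 4417 to 3850 and 3301 in endothelial cells, and from 2298 and 3892 to 3210 and 2504 in pericytes. Without a filter on low counts Ifngr1 in OPC did not pass (0.29, edgeR adjusted p = 0.165).

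Genes downstream of the receptor were compared with mature oligodendrocytes over the same list of 15, of which 14 were tested. In endothelial cells 11 were higher, where 22.3% of all genes were, and 1 was lower, where 4417 of all 14351 genes were. The median log2 fold change was 4.06 beside -0.32 for all genes. Among them were the guanylate-binding protein gene Gbp2 (9.65 ± 0.36), Psmb8 (8.21 ± 0.31) and the immunity-related GTPase gene Igtp (7.50 ± 0.26). In the Foxp3-DTR- and Foxp3-DTR+ libraries, mature oligodendrocytes had 5 and 3 UMIs of Gbp2, 13 and 41 of Psmb8 and 20 and 16 of Igtp. The size of these 3 fold changes thus rests on a reference near 0. In pericytes 10 were higher (all genes 16%) and 1 lower (all genes 3892 of 14351), with a median of 2.29 beside -0.52. In astrocytes 8 were higher (all genes 32%) and 4 lower (all genes 4999 of 14351), with a median of 1.03 beside -0.06. In OPC 6 were higher, near the 32.8% of all genes, and 2 lower (all genes 4968 of 14351), with a median of 0.51 beside -0.05. The phosphatase gene Ptpn11 was the lower one in pericytes (-1.57 ± 0.24) and was also lower in astrocytes (-2.42 ± 0.17) and OPC (-2.04 ± 0.16).

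Depletion of regulatory T cells was addressed by the 2 hippocampal libraries, 1 per genotype, so no test of that difference is possible. The log2 ratio of Ifngr1, Foxp3-DTR+ over Foxp3-DTR-, was -0.05 (-0.24 to 0.13) in mature oligodendrocytes, 0.02 (-0.31 to 0.35) in OPC and 0.03 (-0.24 to 0.30) in astrocytes. It was -0.50 (-1.13 to 0.10) in endothelial cells, -0.22 (-1.04 to 0.56) in pericytes and -0.26 (-1.47 to 0.89) in neuroblasts. In the 3 glial classes the counting intervals thus exclude a 2-fold difference of Ifngr1 between these libraries. For Ifngr2 the ratio was 0.22 (-0.06 to 0.50) in mature oligodendrocytes, -0.27 (-0.65 to 0.12) in OPC, -0.08 (-0.56 to 0.40) in astrocytes, 0.11 (-0.81 to 1.01) in endothelial cells, 0.02 (-1.98 to 1.89) in pericytes and -0.58 (-1.35 to 0.14) in neuroblasts. All 12 intervals include 0, and none of the 12 ratios reached 2-fold as counted here. After thinning, the Ifngr2 ratio was 2.08 in pericytes, from 2 and 3 UMIs, and -1.05 in neuroblasts, and with at least 1000 genes a cell it was 1.25 in pericytes, from 3 and 3 UMIs. Among genes with at least 100 UMIs in the class, which several of the 12 receptor values do not reach, the share past 2-fold in either direction was 0.735% in mature oligodendrocytes, 0.409% in OPC, 0.218% in astrocytes, 0.616% in endothelial cells, 0.401% in pericytes and 0.556% in neuroblasts. Of the list of 15 genes downstream, those with at least 100 UMIs numbered from 1 in pericytes to 10 in endothelial cells, and 0 of them were past 2-fold in any class. Some genes with fewer UMIs were past 2-fold with an interval that left out 0, and they are named here after their values were seen. In mature oligodendrocytes Psmb8 had 13 UMIs in the Foxp3-DTR- and 41 in the Foxp3-DTR+ library, a log2 ratio of 2.33 (1.40 to 3.35), and Tap1, a peptide transporter gene, had 3 and 15, a ratio of 2.99 (1.17 to 5.42). In astrocytes Socs1 had 36 and 14 UMIs, a ratio of -1.27 (-2.28 to -0.35). In pericytes Socs3 had 63 and 18 UMIs (-1.30, -2.15 to -0.53), Ptpn11 16 and 23 (1.03, 0.04 to 2.04) and Irf1 19 and 0. In endothelial cells 6 of the 10 genes with at least 100 UMIs were higher in the Foxp3-DTR+ library. Gbp2 had 114 and 143 UMIs, a ratio of 0.95 (0.58 to 1.32). Igtp was at 0.65 (0.27 to 1.02), Tap1 at 0.60 (0.05 to 1.14) and Psmb8 at 0.54 (0.30 to 0.77). Socs3 went the other way there, at -0.87 (-1.41 to -0.35). Mature oligodendrocytes and OPC also held genes with such intervals, in both directions. All these values are differences between 2 libraries, with no replicate.

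Across the 12 sums of class and library, the genes most like Ifngr1 were AW011738, Ephx1, Hes1, Pttg1ip and Pcdh1, with r from 0.95 to 0.98 over 7189 genes with a mean of at least 20 CPM. Those most like Ifngr2 were Chic2, Tsen15, Anks3, Bhlhb9 and Wdr82, with r from 0.94 to 0.96. The sums of a library share its depth, and these are descriptions.

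The genes that produce or induce the cytokine were at or near 0 in the hippocampal cells. Ifng had 6 UMIs in 1 unclassed cell of the Foxp3-DTR- library and 0 in the Foxp3-DTR+ library. Il18r1 had 0 UMIs in both, and Tbx21 had 4 and 1, Stat4 6 and 0, Il12rb2 7 and 6, Cxcr3 1 and 0, and Il18rap 2 and 0. Cd3e, a defining T-cell gene, had 19 UMIs in 5 cells of the Foxp3-DTR- library and 0 in the other. A count of 0 allows up to 0.061 CPM in the Foxp3-DTR- and 0.0894 CPM in the Foxp3-DTR+ library.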

How the data were processed

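Single-cell libraries were deposited as tables of UMI counts, and per the file headers they come from Cell Ranger, version 4.0.0 for the first meningeal replicate, 6.0.0 for the other and 6.1.0 for both hippocampal libraries; the submitters' processing notes name mm10 and Seurat. The labels name a 3' kit for every library while the series text names a 5' kit with TCR sequencing for T cells, and which applies was not settled. The barcode listed for the replicate 1 hashtag was not the one stored under that name, and the name was used. No deposited cell annotation was used here. Gene positions came from GENCODE M21, with which 54349 of 55487 gene IDs matched exactly.

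Meningeal barcodes (13402 and 33575) were kept with at least 10 counts of their sample's hashtag and 5 times the next, 500 genes, under 10% mitochondrial UMIs, a Cd3 UMI and at most 1 TRB chain. The hashtag margin and the TRB limit, which removed 90 and 174 cells, served against doublets. Hippocampal barcodes (8220 and 6548) were kept with 500 genes and under 15% mitochondrial UMIs, and Scrublet (Scanpy 1.11.5) removed 242 and 158. A class needed 4 UMIs over 2 of its markers and 3 times the next class. Of the kept barcodes, 4 were shared between meningeal and 15 between hippocampal libraries.

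UMIs were summed per state or class and library and tested with edgeR 4.0.16 (quasi-likelihood, TMM, R 4.3.3, Benjamini-Hochberg over all genes); DESeq2 1.42.0 was an alternative. TCR genes and the state-defining genes, 275 in all, were left out of T-cell tests. Sums of 1 meningeal replicate come from the same library and animals, and their deviations correlated over 9442 genes (r from 0.32 to 0.75), so results with that block stand beside those without. Nothing says that the replicates are separate animals beyond their genotype. The p-values measure the spread between these samples, moderated by a spread pooled over genes. In the Ifng-positive fit with the block they rest mostly on the pooled spread. Tested on simulated data, the test without the block recovered 98.5% of 200 genes changed 4-fold for iNKT against single-clone cells (7810 genes), 88% for Ifng-positive cells (8987 genes) and 100% for astrocytes (14351 genes). False calls were 6.64%, 7.37% and 2.91% of the calls. The simulated counts had a fixed spread and no replicate effect, and only well counted genes were changed. These shares therefore do not measure the fit with the block, which was not simulated, or the recovery in the real sums. Named genes were the 9 members, the 5 genes most like Ifng, Ifngr1 and Ifngr2, and up to 4 genes a list by smallest p. Members and lists were chosen with earlier results of these data known. Some genes of the lists and of the state rules are not reported here by name.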

Additional observations from a re-analysis of the deposited data

Results flagged for a closer look

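Ifng in iNKT against expanded cells went opposite ways in the replicates, at 1.249 on the log2 CPM scale in replicate 1 and -1.189 in replicate 2; the difference between replicates was not tested. The single cells with 67 and 100 Ifng UMIs lie in these 2 states.

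T cells that fell in none of the 5 states, which entered no comparison, had Ifng at 178.3 CPM in replicate 1 and 120.4 CPM in replicate 2, above the 6.05 and 30.5 CPM of naive-type cells. In replicate 1, 75 of their 90 Ifng UMIs lay in 1 cell, and without it the level was 30 CPM. Their myeloid markers summed to 493 CPM and their dissociation and activation genes to 9518 CPM in that replicate, whose part in the level was not tested.

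In the hippocampal libraries, sorted to lack immune cells, production genes exceeded the limit that a count of 0 allows. The Foxp3-DTR- library held 6 UMIs of Ifng, 4 of Tbx21, 7 of Il12rb2 and 6 of Stat4, and the Foxp3-DTR+ library 6 of Il12rb2.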

How the results depend on the processing

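Counts of called genes in T cells are given in the order iNKT, Foxp3-positive, expanded and naive-type against single-clone cells, then iNKT against expanded cells. With the replicate block they were 350, 265, 100, 242 and 194 (Ifng-positive cells 318), with DESeq2 27, 12, 1, 20 and 21 (3), and without a filter on low counts 163, 123, 70, 111 and 170 (91). A hashtag margin of 20 with the replicate block gave 298, 222, 102, 219 and 168. Leaving out the top Ifng cell of each state and replicate with the replicate block, a setting chosen after seeing the data, gave 369, 283, 98, 257 and 204. For iNKT against single-clone cells a hashtag margin of 2 gave 0, a margin of 20 gave 6, clonotypes by TRB and TRA 7, thinned cells 13 and no top cell 2. Requiring 2 Foxp3 UMIs gave 2 for Foxp3-positive cells and thinning 7, thinning 7 and no top cell 1 for naive-type cells, and clonotypes by TRB and TRA 2, thinning 6 and no top cell 2 for iNKT against expanded cells.

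The mean Ifng level of iNKT cells without the top cells was 121 CPM. The mean share with an Ifng UMI was 24.2% (margin 2), 10.6% (thinned) and 22.5% (no top cell) in iNKT cells, and 9.72% (margin 2), 4.19% (2 Foxp3 UMIs) and 2.81% (thinned) in Foxp3-positive cells. It was 22.9% (TRB and TRA) and 12% (thinned) in expanded, 7.11% (thinned) in single-clone, and 1.8% (thinned) and 1.83% (no top cell) in naive-type cells. The Ifngr2 log2 ratio between hippocampal libraries was 0.596 in astrocytes, 2.08 in pericytes and -1.05 in neuroblasts after thinning, and 1.25 in pericytes with at least 1000 genes a cell.

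Every reversed sign belonged to a difference that had not passed. In expanded against single-clone cells Cxcr3 was -0.0083 (no filter), Stat4 0.00434 (TRB and TRA), and Il18rap -0.0265 (no filter) and -0.0456 (thinned). Ifngr1 was 0.00104 (DESeq2), 0.0125 (margin 20), 0.0205 (margin 20 with replicate block), 0.00641 (TRB and TRA), 0.00613 (no CD8 UMIs) and 0.0719 (thinned). Il12rb2 was 0.143 (replicate block), 0.00125 (DESeq2), 0.00739 (margin 2), 0.222 (margin 20), 0.394 (margin 20 with replicate block), 0.219 (TRB and TRA), 0.176 (thinned) and 0.149 (no top cell with replicate block). In iNKT against expanded cells Cxcr3 was -0.0762 (TRB and TRA) and Ifng 0.115 (margin 2). Ifngr2 there was 0.0229 (DESeq2), 0.0121 (no filter), 0.557 (margin 2), 0.0176 (2 Foxp3 UMIs), 0.752 (TRB and TRA), 0.269 (no CD8 UMIs) and 0.0206 (no top cell). Stat4 in Ifng-positive cells was -0.0229 (no filter), -0.0513 (margin 20) and -0.0758 (thinned). Leaving out a replicate leaves 1 sample a group and a value without a test. These values ranged from -0.952 to 1.42 for Ifngr2 in Foxp3-positive cells. In expanded against single-clone cells they ranged from -0.0572 to 0.198 for Cxcr3, -0.0594 to 0.0476 for Ifngr1, -0.514 to 0.895 for Il12rb2 and -0.0362 to 0.232 for Il18rap. In iNKT against expanded cells they ranged from -0.173 to 0.326 for Cxcr3, -1.19 to 1.25 for Ifng and -0.0839 to 0.384 for Ifngr2. In Ifng-positive cells the Stat4 log2 fold change, Ifng-positive minus Ifng-negative, ranged from -0.0586 to 0.155. The cause of these changes was not tested.

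Of the single-gene values under an alternative, 650 kept their direction and call, 39 reversed, 50 came to pass and 1 ceased to (Ifngr1 in OPC without a filter, 0.29). Fibroblasts, with 33 cells in 1 library, were not compared. Depth limits Ifngr2 in T cells and both receptors in pericytes and neuroblasts.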
